A study of Rattus norvegicus with 6 samples.

Results

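Small structural noncoding RNAs are the RNA parts of the cell's basic machines, and their genes occur in the rat genome in many copies, most of which are taken to be pseudogenes. The SRP RNA (7SL) is the scaffold of the signal recognition particle, which brings ribosomes that make secreted and membrane proteins to the endoplasmic reticulum. 7SK holds the elongation factor P-TEFb in an inactive complex and so restrains RNA polymerase II, RNase P RNA is the catalytic part of the enzyme that trims the 5′ end of tRNA, and RNase MRP RNA cleaves the precursor of ribosomal RNA. The U1, U2, U4, U5 and U6 RNAs form the spliceosome, U7 takes part in cutting the 3′ end of histone mRNA, and U3, U8 and the other small nucleolar RNAs (snoRNAs) guide the cleavage or chemical modification of ribosomal RNA. Most vertebrate snoRNAs are cut out of the introns of host genes, whereas SRP RNA, 7SK, RNase P, RNase MRP, Y, vault and U6 RNAs are made by RNA polymerase III.

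The genes described here are the rows of the deposited expression table whose name begins with Metazoa_SRP, 7SK, Y_RNA, SNOR, Snor, RNase or Vault, or is exactly U1 to U8. The rule took 3565 of the 30957 rows, spread over 35 chromosomes and unplaced scaffolds, and these rows carried 183 names in 17 classes. RNA-seq was performed on 3 crushed sciatic nerves (T in the labels) and 3 intact contralateral nerves (C) of Sprague-Dawley rats. The methods place collection of the proximal stump at 4 days postinjury (dpi), and the sample labels give no time, age or side. The series text puts the lesion on the right and the methods on the left. The methods describe TRIzol, rRNA depletion and RNase R, which digests linear transcripts. The labels instead name a column kit that keeps small RNA, and no RNase R. The series text calls the 3 nerves of a group biological replicates without saying that they came from different animals, so p-values measure only the spread between these samples.

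Positions are given as in the table, on Rnor_6.0, the build in the submitters' processing notes. The counts summed to between 24844371 and 27139360 per nerve, and 3 counts, taken as the lowest level that can be told from 0, came to 0.110 to 0.121 CPM (library-scaled counts, with TMM factors). Intact nerve 1 stood apart from the other nerves of its group, where chi-square over its degrees of freedom was 9.58 and 9.84 against intact nerves 2 and 3, and 3.98 between these. Crushed nerve 3 also stood apart, to a lesser degree, at 6.20 and 5.01 against crushed nerves 1 and 2, and 2.90 between these. The tissue label was not borne out by the marker genes. Of 11 Schwann cell genes, 6 had 3 counts or fewer in every nerve, including the myelin gene Mbp, and the leukocyte gene Ptprc was at 0 in every nerve. In contrast, the proliferation gene Mki67 had between 37037 and 43837 counts in each nerve. Rows for ribosomal RNA held 0.000923% to 0.00216% of each library, and the mitochondrial chromosome held 1.61% to 2.0%.

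Few of the annotated copies were counted at all. At least 1 count in any nerve was found on 949 of the 3565 rows, and 2616 rows (73.4%) were at 0, against 39.9% of the 27392 other rows. The counted share differed by class. It was 22 of 32 SRP RNA rows, 120 of 424 7SK rows, 9 of 37 RNase P RNA rows, 81 of 220 U1 rows, 37 of 86 U2 rows, 24 of 115 U4 rows, 9 of 13 U5 rows, 174 of 919 U6 rows and 13 of 83 U7 rows. Among the snoRNAs it was 139 of 323 C/D box rows (names beginning SNORD) and 306 of 1269 H/ACA box rows (SNORA). A count of 0 here limits only what was counted on that row, because the sources used here do not say how reads that match several copies were assigned.

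The counts were concentrated on a handful of rows. RNase MRP RNA, a single row on chromosome 5 (58994682 to 58994953), held 58.9% of all counts on these genes, and 5 rows together held 86.8%. These 5 rows were RNase MRP RNA, a pair of 7SK copies and a pair of RNase P RNA copies. Rows of 250 bases or longer took 88.6% of the counts although they are 382 of the 3565 rows. On FPKM, the authors' count scaled by length and library size, RNase MRP RNA had the highest mean level of all 30957 rows. It averaged 8171 over the 6 nerves, against a median of 12.8 over the rows tested. The most counted 7SK copy was at 1409 (rank 14 of all rows) and the most counted RNase P RNA copy at 541 (rank 87). The highest U1 copy was at 30.1, the highest U6 copy at 20.7, the highest C/D snoRNA at 93.9 and the highest H/ACA snoRNA at 126.

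**Figure D1:**
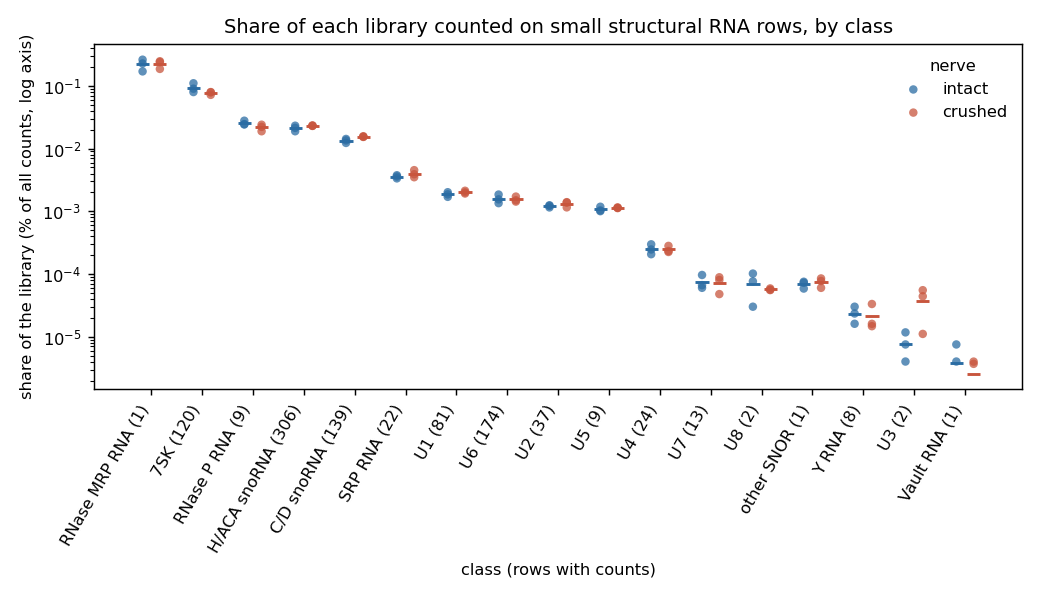
Share of each library's counts on each class, in percent on a log axis, with 1 point per nerve and a bar at the mean of 3 intact (blue) and 3 crushed (red) nerves. The number of rows with counts stands beside each class, and nerves at 0 (vault RNA) are not drawn. RNase MRP RNA lies highest, between 0.170% and 0.262%, and the intact and crushed points overlap in most classes.

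The members together took 0.349%, 0.421% and 0.379% of the libraries of intact nerves 1, 2 and 3, and 0.400%, 0.390% and 0.327% of those of crushed nerves 1, 2 and 3. The groups overlapped, and the mean was 0.383% ± 0.0363 (SD, n = 3) in intact and 0.372% ± 0.0396 (SD, n = 3) in crushed nerves (two-sided exact permutation test, p = 0.70, smallest possible p = 0.10). Without RNase MRP RNA the share was 0.163% ± 0.0140 (SD, n = 3) in intact and 0.148% ± 0.00657 (SD, n = 3) in crushed nerves, and the groups still overlapped on this scale (exact permutation test, p = 0.20).

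RNase MRP RNA itself had 43535, 69506 and 56591 counts in intact and 67096, 64780 and 46493 in crushed nerves. The lowest values were in intact nerve 1 and crushed nerve 3, and the range of the intact nerves covered that of the crushed nerves. Its log2 fold change was 0.01 ± 0.14 (SE), with 2 SE either side reaching from -0.26 to 0.29 for the class.

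Of the 3565 rows, 254 passed the expression filter and were compared between crushed and intact nerves, row by row, in 1 edgeR fit over 12393 rows of the table. Under the limits of the methods (absolute log2 fold change above 1 and p under 0.001, read here as unadjusted), 3 rows were higher and 0 lower in crushed nerves. Over all rows tested, 0.218% were called higher and 0.0646% lower. At an adjusted p under 0.05, 5 of the 254 rows rose and 0 fell, where 1.47% of all rows rose and 1.65% fell, so the 5 make up 1.97% of these rows. At an unadjusted p under 0.05, 19 rows were higher and 4 lower, which is 7.48% and 1.57% of the 254, against 6.71% and 9.5% of all rows. Crushed nerves lay wholly above intact nerves on 44 rows and wholly below on 7, that is 17.3% and 2.76% of the 254, where the figures over all rows were 10.8% and 12.2%. The log2 fold change was positive on 189 of the 254 rows (74.4%), with a median of 0.16, against 49.4% of all rows tested with a median of -0.0017. The filter keeps a row that is high in 1 group only, so these counts describe the rows that passed and not all 3565.

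**Figure D2:**
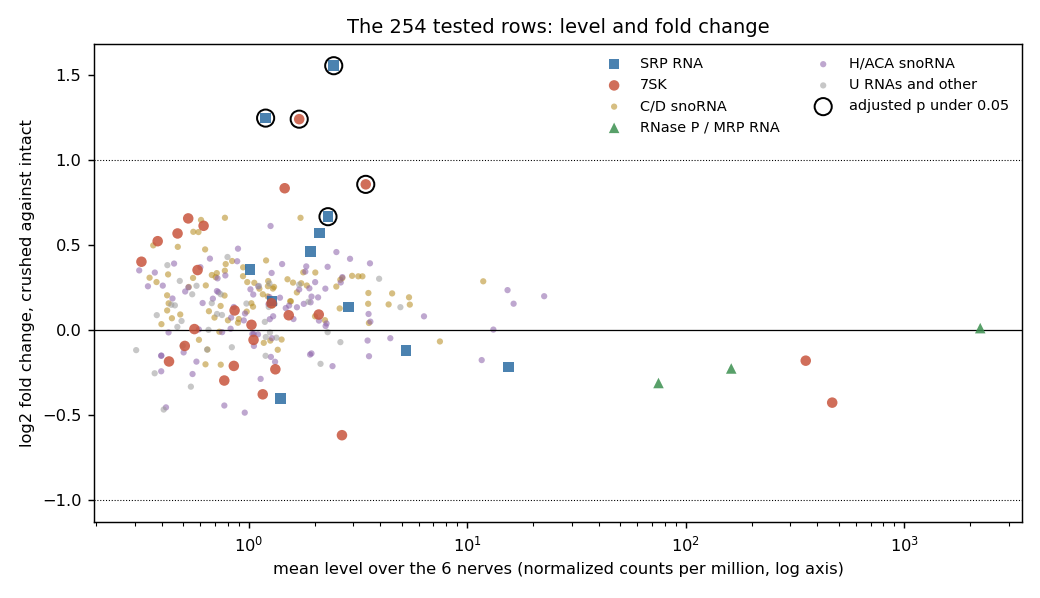
Log2 fold change (crushed against intact) of the 254 tested rows against their mean normalized CPM on a log axis, coloured by class, with dotted lines at log2 fold changes of 1 and -1. The 5 circled rows that rose are SRP RNA and 7SK copies of low level, whereas the most counted 7SK and RNase P RNA copies lie below 0.

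The rows that rose were 3 copies of SRP RNA and 2 copies of 7SK, all of low count. The strongest was an SRP RNA copy on chromosome 12 (24796272 to 24796570, ENSRNOG00000053902), with 37, 32 and 26 counts in intact and 119, 99 and 74 in crushed nerves. Its level was 1.24 ± 0.208 CPM (SD, n = 3) in intact nerves and reached 3.65 ± 0.702 CPM (SD, n = 3) after crush, a log2 fold change of 1.56 ± 0.20 (SE, adjusted p = 0.00174). The lowest crushed nerve had 74 counts against 37 in the highest intact nerve. A second copy, on chromosome 2 (148386031 to 148386318, ENSRNOG00000051865), had 20, 18 and 16 counts in intact and 49, 46 and 39 in crushed nerves (log2 fold change 1.25 ± 0.21 SE, adjusted p = 0.00932). The copy on chromosome 4 (24253869 to 24254147, ENSRNOG00000052253) had 46, 47 and 43 counts in intact and 84, 71 and 70 in crushed nerves (0.67 ± 0.16 SE on the log2 scale, adjusted p = 0.0480). The groups did not overlap on either copy, but the last one passed by a narrow margin. Its adjusted p was between 0.0787 and 0.195 when any 1 nerve was left out, 0.0847 with the replicate number as a block and 0.108 with DESeq2. That of the chromosome 2 copy was 0.0545 without crushed nerve 1.

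The most counted SRP RNA copies did not share this increase. The top copy, on chromosome 19 (22476964 to 22477262), held 40.6% of the SRP RNA counts, with 412, 439 and 414 counts in intact and 452, 366 and 317 in crushed nerves. The groups overlapped, and its log2 fold change was -0.22 ± 0.10 (SE, adjusted p = 0.330). It lies within Neto2, a gene for a protein that accompanies kainate receptors, which had 0 counts in every nerve. The next copy, on chromosome 10 (59151684 to 59151984), had 165, 146 and 107 counts in intact and 145, 148 and 108 in crushed nerves, with a log2 fold change of -0.12 ± 0.16 (SE). The copy with the 3rd highest count, on chromosome 5 (74897005 to 74897291), had 73, 78 and 58 against 85, 79 and 75 counts (0.14 ± 0.15 SE). Neither difference exceeded the spread between nerves.

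Of the 11 SRP RNA copies tested, 8 had a positive log2 fold change and the median was 0.36, where the 3 with negative values included the 2 most counted. Without these 2 copies, the other SRP RNA rows summed to 384, 368 and 312 counts in intact and 634, 542 and 446 in crushed nerves, and every crushed nerve was above every intact nerve. These other rows include the copies that rose, so their sum is not separate support for the increase. With all copies summed the class had 961, 953 and 833 counts in intact and 1231, 1056 and 871 in crushed nerves, and the groups overlapped (log2 fold change 0.14 ± 0.09 SE, adjusted p = 0.474). The class value therefore depended on which copies were counted. It was 0.39 (adjusted p = 0.0941) without the most counted copy, and 0.53 (adjusted p = 0.0312) without the copies that overlap another row of the table, which include the one in Neto2. Both of these sums keep the copies that rose, so neither is separate support for the increase.

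7SK showed the same contrast between its copies, on a larger scale of level. Nearly all 7SK counts, 96.3%, lay on a pair of rows. The first, on chromosome 8 (85480292 to 85480622), had 17399, 12193 and 11321 counts in intact and 11034, 11477 and 9263 in crushed nerves. The crushed nerves were all lower on the normalized scale, by a log2 fold change of -0.43 ± 0.13 (SE), which did not pass the adjustment (adjusted p = 0.126). Intact nerve 1 was far above the other intact nerves here, and without it the value was -0.20. The second, on chromosome 18 (40542094 to 40542431), had 9997, 11074 and 7711 counts in intact and 9473, 9133 and 7812 in crushed nerves, and the groups overlapped (-0.18 ± 0.09 SE, adjusted p = 0.371). Without intact nerve 3, its lowest intact value, it passed (-0.29, adjusted p = 0.0196), and without intact nerve 2 it was -0.09 (adjusted p = 0.671).

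The 7SK copies that rose had at most 130 counts in any nerve. The copy on chromosome 6 (95871665 to 95871980, ENSRNOG00000061829) had 32, 20 and 25 counts in intact and 64, 65 and 61 in crushed nerves. It stood at 1.01 ± 0.253 CPM (SD, n = 3) against 2.39 ± 0.0456 CPM (SD, n = 3), a log2 fold change of 1.24 ± 0.21 (SE, adjusted p = 0.00834), and the groups were well apart. The copy on chromosome 1 (173139486 to 173139809, ENSRNOG00000058031), which holds the 3rd highest 7SK count, had 78, 47 and 61 counts in intact and 130, 122 and 100 in crushed nerves (0.86 ± 0.19 SE, adjusted p = 0.0330). Its adjusted p was above 0.05 when intact nerve 2 or 3 or any crushed nerve was left out. A further copy, on chromosome 15 (26297615 to 26297961), had 30, 23 and 27 against 52, 54 and 43 counts, and just missed the threshold (0.84 ± 0.20 SE, adjusted p = 0.0513).

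One 7SK copy of similar count went the other way. The row on chromosome 3 (44773994 to 44774288) had 85, 99 and 64 counts in intact and 67, 55 and 46 in crushed nerves, with all crushed nerves lower on the normalized scale, and the difference did not pass the adjustment (-0.62 ± 0.19 SE, adjusted p = 0.119). Over the 25 7SK copies tested, log2 fold changes ran from -0.62 to 1.24, and 15 were positive with a median of 0.09. Without the 2 main copies, the remaining 7SK rows summed to 765, 701 and 789 counts in intact and 921, 942 and 852 in crushed nerves. This remainder includes the copies that rose and is not separate support for them. All 7SK rows together had the opposite sign, with 28161, 23968 and 19821 counts in intact and 21428, 21552 and 17927 in crushed nerves. That sum gave a log2 fold change of -0.30 ± 0.10 (SE, adjusted p = 0.144), or -0.16 without intact nerve 1, and without intact nerve 3 it passed (-0.40, adjusted p = 0.0256).

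**Figure D3:**
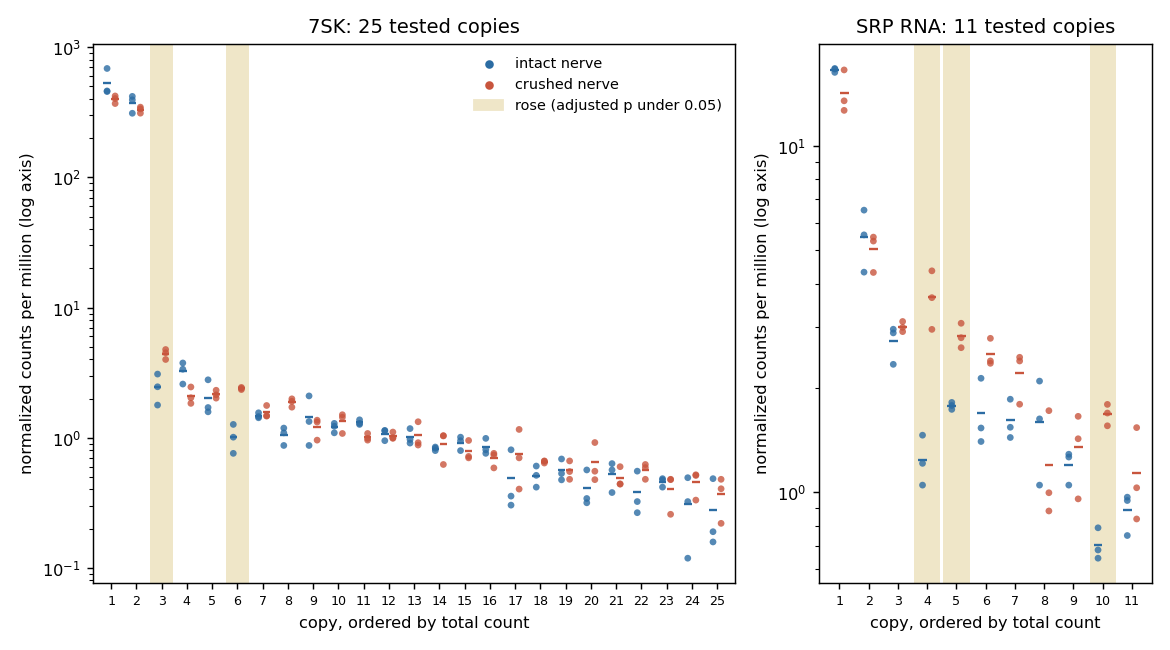
Normalized CPM (log axis) of each tested 7SK copy (left, 25 copies) and SRP RNA copy (right, 11 copies), ordered by total count, with 1 point per nerve and a bar at the mean of 3 intact (blue) and 3 crushed (red) nerves. Shaded copies rose. They start at the 3rd most counted 7SK copy and at the 4th most counted SRP RNA copy, and the 2 most counted copies of each RNA have a lower mean in crushed nerves.

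None of the 5 rows that rose overlapped another row of the table. The nearest other row was 7116 bases from the chromosome 12 copy of SRP RNA and had 3 counts over all nerves (Wbscr28). Farther out, at 33267 bases, lay Cldn4, a tight junction gene, with 258, 229 and 272 counts in intact and 467, 440 and 466 in crushed nerves, which itself rose (log2 fold change 0.80 ± 0.10 SE, adjusted p = 0.00145). Its part in the value of the SRP RNA copy was not tested. The nearest row was 21852 bases from the chromosome 4 copy (Zfp804b, 2 counts), 17869 bases from the 7SK copy on chromosome 6 (6 counts) and 10448 bases from the one on chromosome 1 (0 counts). Around the chromosome 2 copy of SRP RNA the nearest row was 122808 bases away, and it had 6736 counts and a log2 fold change of -0.09. The table gives no strand. Among all 254 rows tested, the 87 that overlap no row outside the rule had a median log2 fold change of 0.15, and the 167 that do had 0.16.

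RNase P RNA was counted on 9 rows, 2 of which held 99.8% of its counts, and both were lower in crushed nerves without passing the adjustment. The first, on chromosome 15 (27738972 to 27739269), had 4602, 4601 and 4091 counts in intact and 4499, 4083 and 3283 in crushed nerves. That is 174 ± 8.38 CPM (SD, n = 3) against 149 ± 16.9 CPM (SD, n = 3), with no overlap (log2 fold change -0.22 ± 0.07 SE, adjusted p = 0.152). It shares its last 19 bases with the row of Parp2, a DNA repair enzyme of the poly(ADP-ribose) polymerase family, whose own log2 fold change was 0.02 ± 0.06 (SE).

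The other, on chromosome 1 (246973112 to 246973539), lies within Slc1a1, a glutamate transporter gene. The RNase P RNA row had 2508, 1915 and 1913 counts in intact and 2014, 1915 and 1412 in crushed nerves (-0.31 ± 0.12 SE, adjusted p = 0.229). Slc1a1 had 729, 764 and 666 counts in intact and 998, 1027 and 998 in crushed nerves and rose (0.43 ± 0.06 SE, adjusted p = 0.00294). A row and the gene around it thus had opposite signs. Summed, RNase P RNA had 7120, 6525 and 6029 counts in intact and 6528, 6009 and 4711 in crushed nerves (-0.25 ± 0.08 SE, adjusted p = 0.152). This sum passed under DESeq2 (adjusted p = 0.0413) and with the replicate number as a block (adjusted p = 0.0336). It was -0.16 (adjusted p = 0.363) without crushed nerve 3, where the chromosome 15 row was at -0.14, and without intact nerve 1 the chromosome 1 row was at -0.16. In bulk nerve, fewer cells of a type and less RNA per cell cannot be told apart, here or for any RNA below.

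The spliceosomal and U7 RNAs were low and none of their sums or copies passed the adjustment. U1 summed to 435, 495 and 501 counts in intact and 522, 542 and 530 in crushed nerves (log2 fold change 0.10 ± 0.08 SE), U2 to 295, 325 and 310 against 380, 373 and 288 (0.10 ± 0.10), U4 to 63, 55 and 74 against 61, 63 and 70 (-0.04 ± 0.18), U5 to 257, 314 and 257 against 306, 307 and 288 (0.07 ± 0.09), and U6 to 345, 412 and 460 against 388, 406 and 428 (-0.05 ± 0.12). The groups overlapped in each of them. For U1 and U6, 2 SE either side of the estimate reached from -0.06 to 0.27 and from -0.28 to 0.19. U7 had between 13 and 24 counts in any nerve.

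The counts of U1, U2 and U6 were spread over many copies, unlike those of 7SK and RNase P RNA. It took 32 U1 rows and 77 U6 rows to reach 90% of the counts of the class, against 2 for 7SK. The leading U1 copy, on chromosome 6 (75622796 to 75622959), had 104, 128 and 128 counts in intact and 142, 152 and 118 in crushed nerves (0.14 ± 0.13 SE). The leading U2 rows lay in an array on chromosome 9, where the copies starting at 79578016, 79592688 and 79560083 had log2 fold changes of -0.01, 0.17 and 0.27. The leading U6 copy was on chromosome 18 (31444735 to 31444837), with 42, 64 and 68 against 51, 63 and 44 counts (-0.20 ± 0.21 SE). The next U6 copies, on chromosomes 7 and 2, were at 0.26 and -0.10, and the 2 tested U4 copies, on chromosomes 12 and 13, at 0.26 and 0.09. The leading U5 copy, on chromosome 5 (136057592 to 136057707), had 83, 96 and 91 counts in intact and 104, 122 and 120 in crushed nerves with no overlap (0.30 ± 0.14 SE, adjusted p = 0.304), while the next pair, on chromosomes 8 and 5, were at -0.07 and -0.04.

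Some RNAs of this kind were hardly represented. Y RNA, a partner of the Ro60 protein, had 4 to 9 counts per nerve summed over 28 rows, and the single vault RNA row had between 0 and 2. U8, which is needed for maturation of the large ribosomal subunit, had 26, 8 and 19 counts in intact and 16, 15 and 14 in crushed nerves, and the one row tested had a log2 fold change of -0.33 ± 0.44 (SE). SNORND104, the name in the rule's set that is neither SNORD nor SNORA, had 15, 20 and 18 against 21, 23 and 15 counts.

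U3 had 3, 2 and 1 counts in intact and 15, 3 and 11 in crushed nerves. Of the crushed counts, 13, 0 and 9 lay on a row on chromosome 10 (74757884 to 74758098) with 0 counts in each intact nerve. The groups overlapped. The table lists the same locus a second time as ACEA_U3, 1 base longer, with 9, 13 and 12 counts in intact and 1, 17 and 1 in crushed nerves. The rows added up to 9, 13 and 12 in intact and 14, 17 and 10 in crushed nerves, and the groups overlapped here too. In all, 5 counted members shared at least 90% of their span with a row outside the rule. One of them, a SNORD18 copy on chromosome 8, had 16, 21, 17, 21, 20 and 21 counts where the row snoU18 beside it had 15, 20, 16, 20, 19 and 20.

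**Figure D4:**
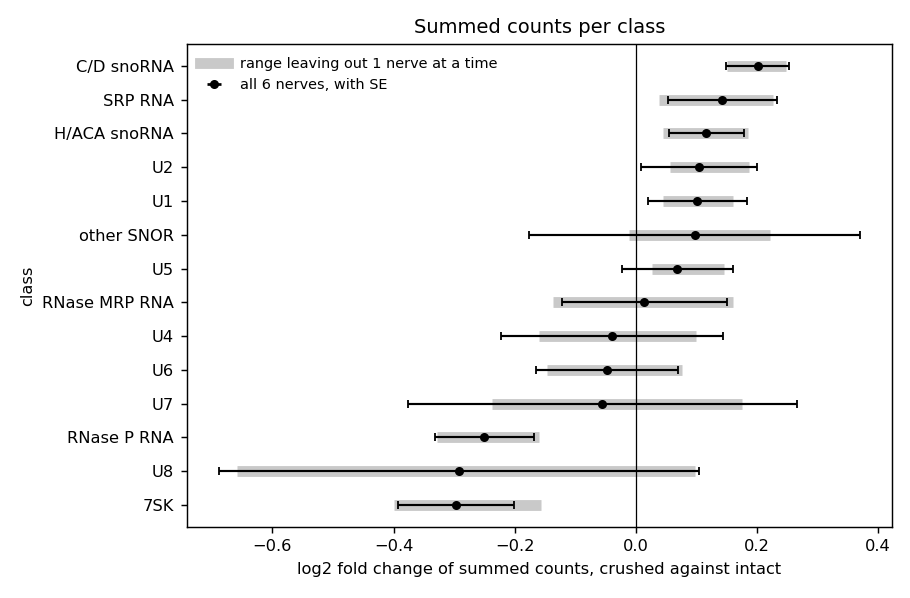
Log2 fold change of the counts summed per class for the 14 classes tested, crushed against intact, with bars of 1 SE, and in grey the range of the value when 1 nerve at a time was left out. C/D snoRNA lies highest at 0.20 and 7SK lowest at -0.30, and the grey ranges of RNase MRP RNA, U4, U6, U7, U8 and SNORND104 (other SNOR) include 0.

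The C/D box snoRNAs, most of which guide 2′-O-methylation of ribosomal RNA, were higher in crushed nerves in value on most rows tested. Their sum was 3150, 3584 and 3542 counts in intact and 4195, 4151 and 3927 in crushed nerves. That is 134 ± 9.40 CPM (SD, n = 3) against 154 ± 2.06 CPM (SD, n = 3), and the groups did not overlap. The log2 fold change was 0.20 ± 0.05 (SE), and its adjusted p of 0.0698 missed the threshold. It was 0.0221 with DESeq2 and between 0.0315 and 0.218 with 1 nerve left out, passing without intact nerve 3 and not without any other. Of 85 C/D rows tested, 75 had a positive value and 10 a negative one, from -0.20 to 0.66 with a median of 0.24. No single C/D row passed the adjustment. Crushed nerves lay wholly above intact nerves on 24 of the 85 and wholly below on 0, against 10.8% and 12.2% of all rows tested.

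The H/ACA box snoRNAs, most of which guide pseudouridylation, showed a smaller difference. They summed to 4835, 5685 and 5761 counts in intact and 6268, 6222 and 5845 in crushed nerves, or 213 ± 21.0 CPM (SD, n = 3) against 231 ± 2.30 CPM (SD, n = 3). The groups overlapped, and the log2 fold change was 0.12 ± 0.06 (SE, adjusted p = 0.389). Of 91 rows tested 65 were positive, from -0.48 to 0.61 with a median of 0.15. Crushed nerves lay wholly above intact nerves on 9 of the 91 rows and wholly below on 3. Over all rows tested these shares were 10.8% and 12.2%, so the 9 rows are near the share over all rows. Both snoRNA classes were lowest in intact nerve 1, and without it the sums differed by 0.15 and 0.05 on the log2 scale. Of the 14 class sums tested 0 passed an adjusted p of 0.05, and 3 had an unadjusted p under 0.05 (C/D snoRNA, 7SK and RNase P RNA). In that fit 1.47% of all features rose and 1.65% fell, and 6.85% were higher and 9.42% lower at an unadjusted p under 0.05.

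Summed per name, 136 of the 183 names were tested and 0 met the limits of the methods in either direction, against 0.196% of features higher and 0.057% lower in that fit. Counted at an unadjusted p under 0.05, 10 names were higher and 2 lower, where 6.75% of all features in that fit were higher and 9.45% lower. One name rose at an adjusted p under 0.05, where 1.45% of features rose and 1.64% fell. This was SNORD14, a C/D snoRNA that takes part in processing of the small subunit RNA, with 175, 177 and 167 counts in intact and 252, 242 and 218 in crushed nerves over 4 rows. Every crushed nerve was higher (log2 fold change 0.40 ± 0.09 SE, adjusted p = 0.0430).

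The 3 tested copies of SNORD14 lie between 44991645 and 44992879 on chromosome 8, inside the row AABR07070032.1. The first (44991645 to 44991729) had 35, 34 and 33 counts in intact and 56, 58 and 54 in crushed nerves (0.66 ± 0.17 SE, adjusted p = 0.0692), and the others had values of 0.32 and 0.31. The row around them had 1762, 1727 and 1647 counts in intact and 1922, 1976 and 1805 in crushed nerves, with a log2 fold change of 0.09 ± 0.05 (SE, adjusted p = 0.362). The surrounding row thus changed less in value than each snoRNA in it, a difference that was not tested.

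SNORD22 was the most counted C/D snoRNA. Its main row on chromosome 1 (224923832 to 224923957) had 256, 292 and 266 counts in intact and 342, 340 and 350 in crushed nerves, with no overlap (0.29 ± 0.09 SE, adjusted p = 0.124). It belongs to a cluster of 8 tested snoRNAs, SNORD22 and SNORD25 to SNORD31, which are known to share the host transcript Snhg1. The cluster summed to 540, 644 and 598 counts in intact and 723, 759 and 715 in crushed nerves, and 7 of its 8 rows were positive, from -0.05 to 0.34. No row overlaps it, so its host has no value here.

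The snoRNA cluster of the Gas5 host transcript, on chromosome 13 between 78852741 and 78855688, was also higher in every crushed nerve on the normalized scale. Its 9 tested rows, among them SNORD24 and SNORD77, the next most counted C/D snoRNAs, summed to 789, 907 and 830 counts in intact and 986, 964 and 920 in crushed nerves. SNORD24 had 204, 200 and 182 counts in intact and 221, 192 and 170 in crushed nerves (-0.07 ± 0.11 SE). SNORD77 had 125, 137 and 133 against 150, 157 and 149, with a log2 fold change of 0.15 ± 0.11 (SE). The 9 rows ran from -0.07 to 0.41 with a median of 0.15, and differences among them were not tested.

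Among the H/ACA snoRNAs, SNORA81 had the most counts, 452, 535 and 609 in intact and 612, 655 and 640 in crushed nerves (0.20 ± 0.11 SE, adjusted p = 0.393). It lies in Eif4a2, a translation initiation factor gene, whose log2 fold change was 0.08 (adjusted p = 0.528). SNORA74 on chromosome 18 had 355, 467 and 358 against 467, 480 and 419 counts (0.16 ± 0.10 SE). SNORA73 on chromosome 5 had 324, 366 and 382 against 451, 483 and 382 (0.24 ± 0.09 SE, adjusted p = 0.249). The Taf1d gene, which encodes a subunit of the RNA polymerase I factor SL1, holds 7 tested snoRNAs, and these ran from -0.18 (SNORA18) to 0.46 (SNORA25), where Taf1d itself was at -0.03. The groups of SNORA25 did not overlap, with 55, 56 and 51 counts in intact and 88, 73 and 71 in crushed nerves, and its adjusted p was 0.159.

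Across the table, 132 of the 177 tested snoRNA rows overlapped a row outside the rule by at least 1 base, with no strand known. For SNORA16 and SNORD77 that row was a second listing of nearly the same span and no host gene. For 129 of them the overlapping row with the most counts was itself tested, giving 82 gene rows. The snoRNA had the higher log2 fold change in 101 of the 129 pairs, with a median of 0.21 for the snoRNAs and 0.02 for the gene rows. Across the pairs, Pearson's r between the log2 fold changes was 0.23 and Spearman's rho 0.18, given as a description because pairs share host genes and libraries. Reads on a snoRNA and on the intron around it cannot be told apart in these counts. The 45 snoRNA rows that overlapped no row outside the rule had a median of 0.16, with 35 positive.

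**Figure D5:**
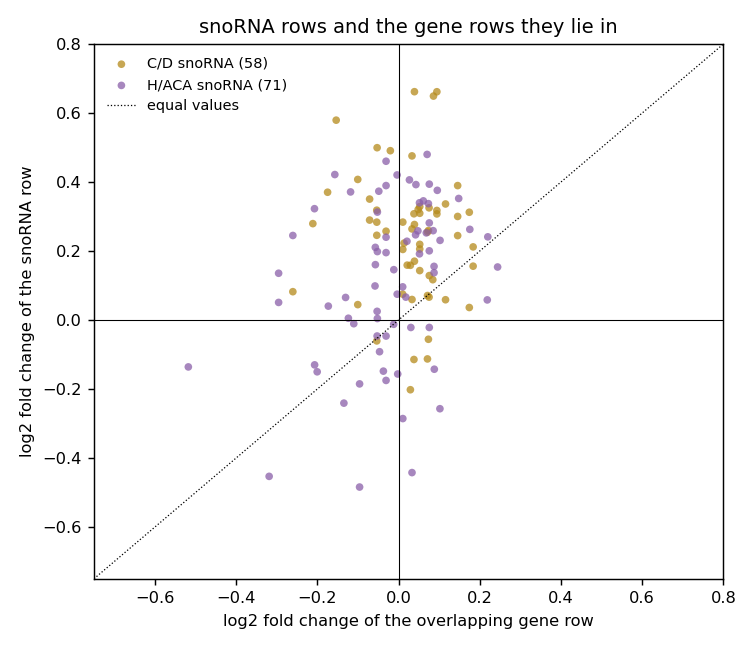
Log2 fold change (crushed against intact) of 129 snoRNA rows against that of the gene row each lies in, for C/D (58) and H/ACA (71) snoRNAs, with a dotted line at equal values. The gene rows lie near 0, at a median of 0.02, and 101 of the 129 points are above the line.

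The proteins that bind or make these RNAs were compared from lists of 169 names, 131 of whose rows were tested. One rose and 0 fell at an adjusted p under 0.05, 0 were called under the limits of the methods, and the median log2 fold change was 0.02. Over all rows tested 1.47% rose and 1.65% fell, and 0.218% and 0.0646% were called higher and lower. The one that rose was Mvp, the major vault protein, which builds the shell of the vault particle. It had 2161, 2306 and 2034 counts in intact and 3549, 3471 and 3085 in crushed nerves, with the groups far apart (0.58 ± 0.04 SE, adjusted p = 4.25e-05). The other vault protein genes were near 0 in value, with Parp4 at 0.07.

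Within the other lists no gene passed. Of 7 SRP protein genes tested 4 were positive, and Srp14, the protein of the Alu domain, had the smallest p (-0.15 ± 0.08 SE). Of 6 genes of the 7SK particle 2 were positive, and the smallest p values belonged to Hexim1, the inhibitor of P-TEFb that 7SK presents (-0.13 ± 0.04 SE, adjusted p = 0.173), and Larp7, which holds the 3′ end of 7SK (-0.14 ± 0.06 SE, adjusted p = 0.269). All 5 genes for proteins associated with Y RNA were negative, led by Ybx1 with 1770, 1347 and 1182 counts in intact and 1044, 1131 and 1084 in crushed nerves (-0.45 ± 0.12 SE, adjusted p = 0.0822).

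The snRNP proteins had 10 positive of 27, with Snrpf, a core Sm protein, at -0.25 ± 0.07 (SE, adjusted p = 0.108). Their assembly factors (genes of the SMN complex, and Coil) had 9 positive of 9, from 0.00 to 0.15, with Gemin4 at 0.14. The snoRNP proteins had 7 positive of 10, with Rrp9 at 0.12, and the RNase P and MRP proteins 8 of 10, with Rpp38 at 0.21 ± 0.09 (SE). RNA polymerase III and its factors had 13 positive of 27 and a median of -0.01, with Maf1, its repressor, at 0.20 ± 0.07 (SE, adjusted p = 0.206). The Integrator complex, which cuts the 3′ end of U RNAs, had 8 positive of 11, with Ints10 at 0.13, and the listed snoRNA host genes had 9 of 18, with Ncl, the nucleolar protein nucleolin, at -0.16 (adjusted p = 0.102).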

How the data were processed

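Libraries from 3 intact and 3 crushed sciatic nerves were analysed. The authors deposited 1 table with the count of reads per Ensembl row and nerve, not normalized, and the authors' FPKM. For the member rows, this FPKM equals the count scaled by the row's span and the library total. The submitters' processing notes name HISAT2, StringTie 1.3.0 and Rnor_6.0, without roles, and how multiply matching reads were counted is not given in the sources used here. Of the 12 columns of values used, each was matched to a nerve by its title, and 0 other value columns were present.

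Log2 fold changes, SE and Benjamini-Hochberg adjusted p-values were taken from a quasi-likelihood fit in edgeR 4.0.16 under R 4.3.3 (TMM scaling, expression filter, no replicate block) on the counts per row, and again with member rows summed per name or per class. FPKM enter only an alternative with limma 3.58.1. In simulated counts on 12393 rows, 91 of 100 rows changed 2-fold were recovered at an adjusted p under 0.05, with 16 false calls among 12193 unchanged rows. The changed rows were drawn from all rows tested, so this does not measure recovery for low-count members or smaller changes. The members and gene lists were chosen with earlier results of these data known. Named were rows that passed, the 3 most counted rows per class and the 3 higher and 3 lower with the smallest p, and partner genes that passed or had the smallest p of their list. Other snoRNAs with their host genes, the chromosome 15 copy of 7SK, U3 with ACEA_U3, Cldn4, Larp7 and Parp4 were picked after their values were seen. The 0 RefSeq entries matched by identifier gave no sequence, and none is printed. DESeq2 (1.42.0) served as an alternative. The floor of 3 counts covers counting error only. Some gene results are not reported here.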

Additional observations from a re-analysis of the deposited data

How the results depend on the processing

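The 3 rows called under the limits of the methods were the same 3 in all 14 other fits of the rows, and 1 more was called without intact nerve 1 (3 to 4 with 1 nerve left out). With an adjusted p under 0.05 and no limit on the fold change, 5 rows and 1 name passed, all higher. Limma on log2(FPKM + 0.1) and on log2(FPKM + 1) each passed 14 rows, the 5 among them, and leaving out 1 nerve passed 2 to 4. Deviations of same-numbered intact and crushed samples had correlations of -0.01, 0.01 and 0.08. These values cannot settle whether equal numbers are the same rat, which the labels do not say. With the replicate block, 3 rows were again called and 5 passed the adjustment, 4 of them shared, and the RNase P RNA sum passed at -0.25, as it did with DESeq2 (-0.25). DESeq2 also passed the C/D snoRNA sum (0.20). Without rows that overlap another row, the SRP RNA sum, which keeps the copies that rose, passed at 0.53 and the U4 sum turned to 0.039. Without the most counted copy of each name the U5 sum turned to -0.061. The U2 copy on chromosome 9 (79578016) turned to 0.0062 without TMM and to 0.011 and 0.010 with limma on log2(FPKM + 0.1) and log2(FPKM + 1). For each of these, the cause was not tested.

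With 1 nerve left out, class sums ran from -0.14 to 0.16 for RNase MRP RNA, -0.40 to -0.16 for 7SK, -0.16 to 0.10 for U4, -0.15 to 0.077 for U6, -0.24 to 0.17 for U7, -0.66 to 0.10 for U8, 0.15 to 0.25 for C/D snoRNA and -0.012 to 0.22 for SNORND104. The copies that changed sign ran from -0.73 to 0.15 for U8 on chromosome 10, -0.26 to 0.033 for SRP RNA on chromosome 10, -0.15 to 0.030 for U5 on chromosome 8, -0.22 to 0.052 for U5 at 136063953 on chromosome 5, -0.20 to 0.030 for U6 on chromosome 2, -0.013 to 0.22 for SNORND104, -0.031 to 0.26 for U4 on chromosome 13, -0.59 to 0.35 for U7 on chromosome 9, -0.13 to 0.16 for RNase MRP RNA and -0.11 to 0.13 for the U2 copy on chromosome 9. Of these copies, depth limits those of U4, U7, U8 and SNORND104, with fewer than 25 counts per nerve. It limits other rows too, among them the SRP RNA copy on chromosome 2, with 16 to 20 counts in intact nerves.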

Other observations

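Some small RNA rows fall outside the naming rule. The 51 SCARNA rows, which guide modification of spliceosomal RNAs in the Cajal body, held 9830 counts, and 39 rows named with a sno prefix held 11666. The row snoU85 on chromosome 4 (157700593) had 898, 1860 and 1413 counts in intact and 1858, 1738 and 1274 in crushed nerves (log2 fold change 0.17 ± 0.19 SE, adjusted p = 0.726). A 5.8S rRNA row on chromosome 1 (11906441) had 188, 376 and 432 against 460, 370 and 143 counts (-0.11 ± 0.35 SE). In both rows, as in RNase MRP RNA, intact nerve 1 was the lowest of its group and crushed nerve 3 the lowest of the other. These rows were picked after their values were seen, and the cause was not tested.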
